A study of Mus musculus with 30 samples.

Results

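The genes described here drive the passage of a cell from G1 into S phase. They are the 3 D-type cyclins (Ccnd1, Ccnd2, Ccnd3), the 2 E-type cyclins (Ccne1, Ccne2), the kinases these cyclins activate (Cdk4, Cdk6, Cdk2) and the transcription factors E2f1 and E2f7. All 10 were picked by symbol, with earlier results of these data known, and are 10 of the 55450 gene identifiers in the count tables. They were measured by RNA sequencing in mouse satellite cells, muscle stem cells that lie dormant beside the fibres until injury makes them divide. The 30 libraries come from hind limb muscle of C57BL/6 mice and form 15 groups of 2. The mice were perfused with paraformaldehyde, a fixative, ahead of cell isolation, though this is in doubt for oFISC (below). One group is uninjured. Others were taken 0.5, 1, 2, 4, 8, 16, 32 and 60 h, or 7, 14 and 28 days, after barium chloride, which kills muscle fibres, was injected. The 3 groups of old cells are oQSC (no treatment), oASC (2.5 days after injury) and oFISC, whose labels give both an injury and the words freshly isolated, so that its state is not clear. Ages are not given for any group, nor is it stated whether the libraries of a group came from separate animals, so p-values measure only the spread between these libraries. Cells not labelled old are called younger.

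Growth signals raise D-type cyclins, which bind Cdk4 or Cdk6 and phosphorylate the retinoblastoma protein. This frees E2f factors such as E2f1, which switch on genes of DNA synthesis and the E-type cyclins. Cyclin E with Cdk2 then completes the step into S phase, and E2f7, itself an E2f target, later represses the same genes. Satellite cells are known to rest in G0 and to need the better part of a day or more after injury before their first S phase.

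All 10 are protein-coding genes of GENCODE M21 (GRCm38). Ccnd1 lies at chr7:144929931-144939925, Ccnd2 at chr6:127125162-127152193 and Ccnd3 at chr17:47505051-47599691. Ccne1 is at chr7:38097984-38107534 and Ccne2 at chr4:11191351-11204779. Cdk2 is at chr10:128697939-128705031, Cdk4 at chr10:127063534-127067920 and Cdk6 at chr5:3341485-3531008. E2f1 spans chr2:154559407-154569892 and E2f7 chr10:110745439-110787384. The strand of counting is not given in the sources used here, so reads from exons that a member shares with a gene on the other strand cannot be told apart. Such exons make up 23.4% of Ccnd1 (shared with LTO1), 19.7% of Cdk4 (Tspan31), 17.4% of Ccne2 (Ints8) and 4.11% of Ccnd3 (Bysl). Ccnd2 shares 3.95% with Gm43126 and 3.91% with 9330179D12Rik. The shared part is 2.63% for Cdk6 (Gm17590), 0.955% for E2f7 (1700020G17Rik) and 0.547% for Cdk2 (Pmel). One processed pseudogene, Ccnd3-ps, could share reads with Ccnd3.

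Promoter sequences are shown for the members in which a searched motif was found and whose window holds at most 1 base of the GENCODE gene. RefSeq (GRCm38.p6) gave 8 promoter entries for 7 of the 10 members. The 250 bases before each start were searched on both strands for the E2f motif, spelled TTTCCCGC, TTTCGCGC, TTTGCCGC or TTTGGCGC. It was found in 2 entries, those of Cdk2 and E2f7, and in 611 of all 32851 promoter entries (1.86%). In both cases the letters were GCGGGAAA, which start 140 bases before the Cdk2 start (window chr10:128705052-128705301, minus strand) and 198 bases before the E2f7 start (window chr10:110745189-110745438, plus strand). Capitals mark the motif.
Cdk2: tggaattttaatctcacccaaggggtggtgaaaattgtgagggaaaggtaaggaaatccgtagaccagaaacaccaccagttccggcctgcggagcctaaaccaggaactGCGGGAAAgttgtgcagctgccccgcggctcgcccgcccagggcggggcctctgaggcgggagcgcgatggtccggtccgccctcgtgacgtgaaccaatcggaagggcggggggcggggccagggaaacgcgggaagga
E2f7: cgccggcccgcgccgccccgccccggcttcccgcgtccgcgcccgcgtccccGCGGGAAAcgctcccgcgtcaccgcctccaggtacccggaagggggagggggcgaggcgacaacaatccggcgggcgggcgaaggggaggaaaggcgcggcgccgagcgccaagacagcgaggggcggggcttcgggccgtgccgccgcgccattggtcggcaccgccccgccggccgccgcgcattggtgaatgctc
The 8 entries were also searched for the E-box CACGTG, which reads the same on both strands, after the Cdk4 sequence had been read. The Cdk4 window (chr10:127063285-127063534, plus strand) holds 4 copies, in capitals, which overlap no E2f motif. The Cdk6 window holds 1 copy, and the other entries hold none. At least 1 copy stood in 6.02% of the 32851 entries and at least 4 copies in 7 of them (0.0213%).
Cdk4: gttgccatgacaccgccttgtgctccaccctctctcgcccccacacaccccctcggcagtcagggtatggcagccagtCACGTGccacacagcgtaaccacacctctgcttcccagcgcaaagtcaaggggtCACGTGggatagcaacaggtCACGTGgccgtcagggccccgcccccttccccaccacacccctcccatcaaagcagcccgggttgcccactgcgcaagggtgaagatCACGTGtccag
These matches describe letters, not binding. The windows of E2f1, Cdk6 and 1 of the 2 Ccnd3 entries lie inside the GENCODE gene models, so they do not show the bases ahead of the outermost start.

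Levels are in CPM, counts scaled to a common library total over all 30 libraries, and levels of different genes are compared only per kb of exon. Library totals ran from 9182407 to 57441790 counts. Per kb, Ccnd3 was the highest member in uninjured cells, at 45.8 ± 6.10 CPM per kb (SD, n = 2). Cdk4 followed at 25.8 ± 4.28, Ccnd1 at 24.7 ± 11.1 and Cdk2 at 8.22 ± 0.154. Ccne2, Cdk6, E2f1 and Ccnd2 lay between 1.16 and 0.211 CPM per kb. Ccne1 had 3 counts in 1 uninjured library and 0 in the other. E2f7 had 0 counts in both, which allows up to 0.0926 CPM over the 2 libraries. At 60 h the order had become Cdk4 (172 ± 1.99 CPM per kb), Ccnd1 (57.7 ± 0.209), Ccnd3 (37.5 ± 1.70) and Cdk6 (31.0 ± 0.776). All 10 genes passed the filter on low counts in every fit.

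**Figure D1:**
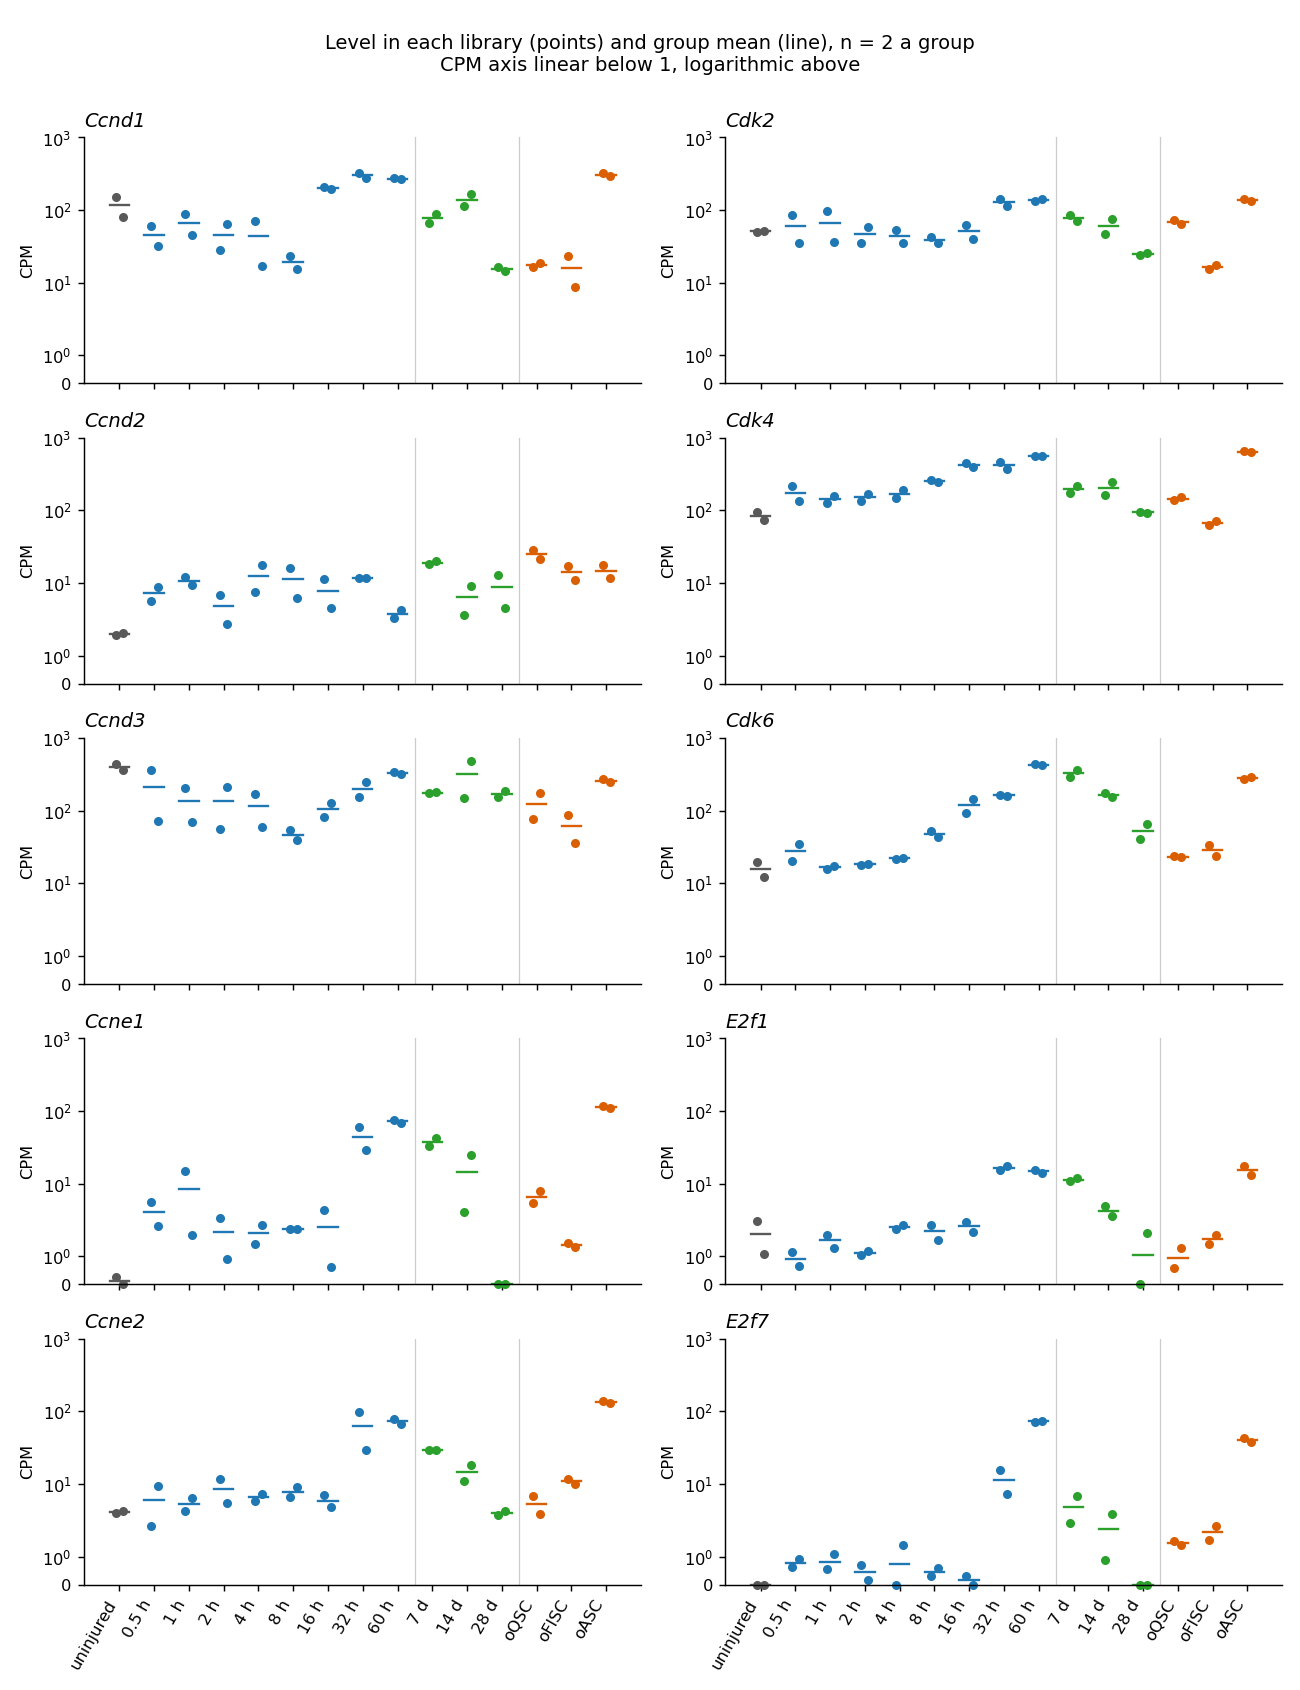
CPM of the 10 genes in each library (points) with the mean of each group (line), on an axis that is linear below 1 CPM and logarithmic above. Ccne1, Ccne2, E2f1 and E2f7 stand at 14.8 CPM or less up to 16 h, and each is higher in every 32 and 60 h library than in any of its own earlier ones, while Cdk4 and Cdk6 climb from 8 h on.

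The libraries of 0.5 to 4 h need care. Over the 2000 most variable genes, the r between the 2 libraries of these 4 groups was 0.693 to 0.816. In the other groups it was 0.634 to 0.964, lowest at 14 days (0.634) and 28 days (0.714). All 8 libraries of the 0.5 to 4 h groups were closer to a library of another group than to their own partner, as against 2 of the other 22. In each of these groups 1 library had more Pax7, a mark of resting satellite cells, by 3.85 to 14.3-fold, and less Myod1, a mark of activation, by 11.0 to 24.5-fold. Yet its 9 satellite cell markers, Pax7 among them, summed lower in each group, at 6030 to 10200 against 14400 to 18700 CPM. Its summed fibro-adipogenic and fibroblast markers were higher in each group, at 2550 to 3460 against 1270 to 1710 CPM. So were its pericyte and smooth muscle markers. Whether the split reflects cell state or the mix of cells was not tested. Ccnd1, Ccnd3 and Cdk2 were higher in the library with more Pax7 in 4 of 4 groups, and Ccne2 and E2f7 in 0 of 4. How many of all genes split this way was not counted, and E2f7 held 0 to 32 counts in each of these libraries. The gap was 2.86 to 4.93-fold for Ccnd3 and at most 1.69-fold for Cdk4 and Cdk6. Results at 0.5 to 4 h rest on these libraries. Summed markers of pericytes and smooth muscle were 1980 and 1740 CPM in the uninjured libraries and 85.2 to 636 CPM in the libraries of 0.5 to 60 h. Those of macrophages and monocytes went the other way, from 5.51 and 4.32 CPM (7 and 6 of 11 genes at 0) to 110 and 538 at 32 h and 230 and 49.6 at 60 h. Myofibre markers were at 26.3 and 14.9 CPM (4 of 10 genes at 0 in both libraries), 34.8 and 43.0 at 32 h, and 494 and 462 at 60 h. The part of these cell types in the comparisons was not tested. Lymphocyte markers summed to at most 11.7 CPM in any of the 30 libraries, and neutrophil markers to at most 111 CPM. In bulk samples, fewer cells of a type and less RNA per cell cannot be told apart.

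Over the 9 groups from uninjured to 60 h, 8 of the 10 genes changed (edgeR quasi-likelihood F test, adjusted p under 0.05), where 24.7% of the 22479 genes tested did. Ccnd2 (adjusted p = 0.0851) and Ccnd3 (0.119) were not called. The smallest adjusted p was that of Cdk6, 1.1e-05. Cdk2 was called at 0.047, and lost this call without any 1 library of the uninjured, 2, 4, 8, 16, 32 or 60 h groups (0.0504 to 0.166). Without any single one of the 18 libraries, Ccnd1, Ccne1, Ccne2, Cdk4, Cdk6, E2f1 and E2f7 were still called.

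Against uninjured cells, 1 member was higher at 0.5 h (10.3% of all genes were called, in either direction), 2 at 1 h (10.2%), none at 2 h (9.31%) and 1 at 4 h (11.0%). For 2 h, 3 members had an unadjusted p under 0.05 in edgeR, and DESeq2 called 3. Without 1 library these counts were 0, except for 1 without 1 h library 2 and 3 without 4 h library 1. With only the 2 groups compared in the fit the counts at 0.5, 1 and 4 h were 0. At 8 h, 4 members rose and 2 fell (30.1%). At 16 h 4 rose (22.7%), at 32 h 7 rose (20.5%) and at 60 h 7 rose (28.3%), and none fell at these times. The median log2 fold change of the 10 was 1.24 at 8 h, 2.80 at 32 h and 2.79 at 60 h, while that of all genes was 0.00, 0.25 and 0.00. At 16 h it was 1.39, or 0.79 with E2f7 set at its bound, beside 0.11 over all genes. All these comparisons share the 2 uninjured libraries. The 8 h count was 2 without uninjured library 1, 1 without uninjured library 2, 1 without 8 h library 1 and 3 without 8 h library 2. At 16 h it was 2 without either uninjured library or 16 h library 1, and also 2 with RLE size factors. At 32 h it was 5 or 6 and at 60 h 6, whichever library was left out.

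Between neighbouring times, no member was called from 8 to 16 h (0.00890% of all genes were, by edgeR). There, 3 members had an unadjusted p under 0.05 and DESeq2 called 2. From 16 to 32 h Ccne2 and E2f1 rose (0.796%), and from 32 to 60 h Cdk6 rose (3.69%). The count from 16 to 32 h was 1 without 32 h library 2 and 0 without any of the other 3 libraries. That from 32 to 60 h was 0 without any 1 of its 4 libraries.

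Of the D-type cyclins, Ccnd1 and Ccnd3 fell at 8 h and Ccnd2 rose. Ccnd1, the cyclin most tied to growth factor signals, read 153 and 79.4 CPM before injury, 59.4 and 32.0 at 0.5 h, 87.5 and 45.6 at 1 h, 28.2 and 63.2 at 2 h, and 71.5 and 17.0 at 4 h. It was 22.9 and 15.2 at 8 h, 207 and 192 at 16 h, 327 and 280 at 32 h, and 272 and 271 at 60 h. The 8 h libraries lay below both uninjured ones, and the 16, 32 and 60 h libraries above them. The fall at 8 h was called, at a log2 fold change of -2.64 ± 0.64 (SE; adjusted p = 0.0118). It was lost without uninjured library 1 (adjusted p = 0.085), 8 h library 1 (0.0597) or 8 h library 2 (0.104). The higher levels at 16, 32 and 60 h were not called (0.79 ± 0.61, 1.39 ± 0.61 and 1.21 ± 0.61, adjusted p = 0.36, 0.125 and 0.15). The step from 8 to 16 h was 3.43 ± 0.66 on the log2 scale, with an adjusted p of 0.139.

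Ccnd3, the D-type cyclin of differentiated muscle and blood cells, had its highest group mean in uninjured cells. It stood at 440 and 364 CPM there, 358 and 72.8 at 0.5 h, 204 and 70.3 at 1 h, 56.3 and 215 at 2 h, and 172 and 60.1 at 4 h. Its lowest levels came at 8 h (53.8 and 39.6), with 82.4 and 130 at 16 h, 156 and 247 at 32 h, and 340 and 319 at 60 h. Every library from 0.5 to 60 h lay below both uninjured ones. The fall at 8 h was called (log2 fold change -3.14 ± 0.82, adjusted p = 0.0157), and lost without any 1 of the 4 libraries (0.0508 to 0.119). At 60 h the log2 fold change was -0.30 ± 0.76 (adjusted p = 0.802).

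Ccnd2, the third D-type cyclin, had the reverse order. The uninjured libraries, at 1.93 and 2.05 CPM, were lower than any other of the 30. It was called higher at 1 h (log2 fold change 2.40 ± 0.67, adjusted p = 0.0403), 4 h (2.65 ± 0.68, 0.0279), 8 h (2.47 ± 0.67, 0.0182), 16 h (1.98 ± 0.66, 0.0479) and 32 h (2.57 ± 0.67, 0.0188). Its highest level in this period was 17.8 CPM, in 4 h library 2, and its 60 h libraries held 3.32 and 4.26. The calls at 1 h and 32 h were lost without any 1 of their 4 libraries (0.0599 to 0.201). Those at 4, 8 and 16 h were lost without either uninjured library (0.0883 to 0.189), and without 4 h library 2 (0.193), 8 h library 1 (0.141) or 16 h library 1 (0.379). At 16 h the call was also lost with RLE size factors (0.0763) and without unnamed and mitochondrial gene models (0.0683).

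The make-up of the D-type cyclins is shown as each gene's part of their summed CPM per kb, over 1271 to 29978 counts a library. Ccnd1 made up 39.3% and 28.8% of it in the uninjured libraries, 38.3% and 38.4% at 8 h, 80.6% and 72.8% at 16 h, 78.5% and 66.9% at 32 h, and 59.7% and 61.0% at 60 h. Ccnd3 took 60.5% and 70.8% before injury, as against 17.2% and 26.4% at 16 h. The 16, 32 and 60 h libraries all lay above all uninjured to 8 h libraries for Ccnd1. Ccnd2 reached at most 15.3% up to 60 h, in 4 h library 2. The summed level was 82.8 and 58.6 CPM per kb in uninjured cells, 12.7 and 8.41 at 8 h, and 96.9 and 94.3 at 60 h.

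**Figure D2:**
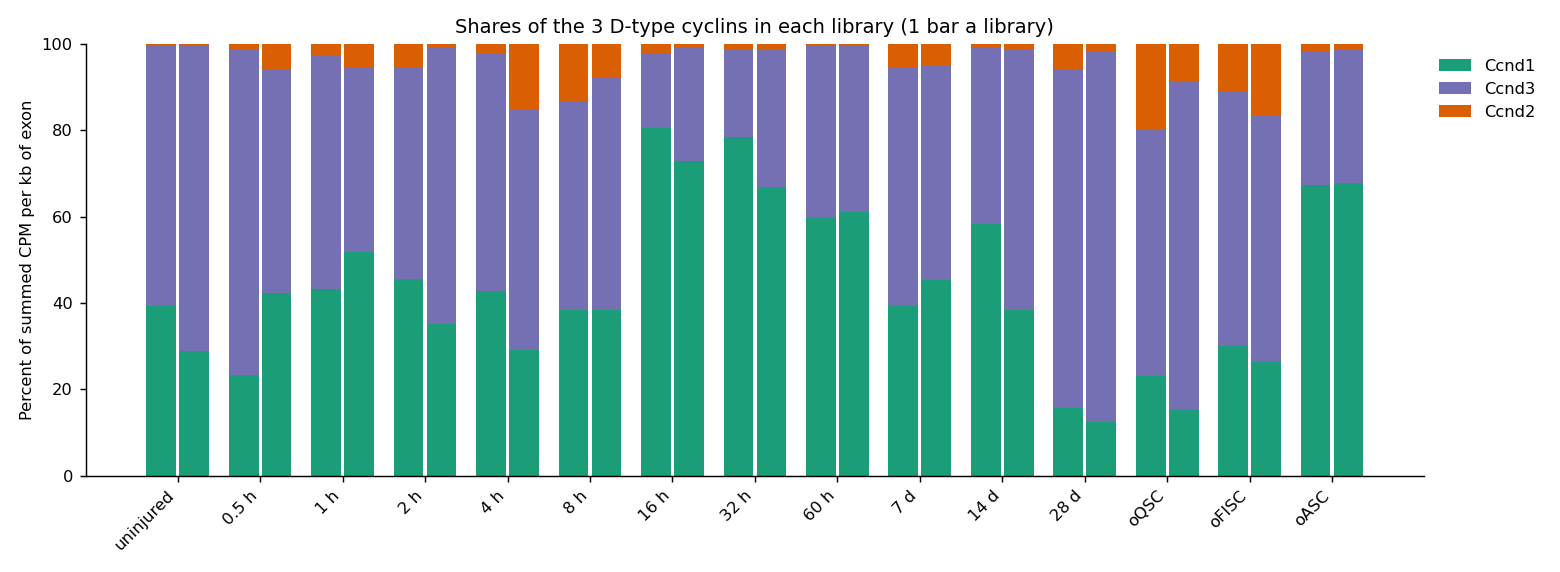
Percent of the summed D-type cyclin level (CPM per kb of exon) from Ccnd1, Ccnd3 and Ccnd2, with 1 bar for each of the 30 libraries. Ccnd1 takes 66.9% to 80.6% at 16 and 32 h, and 12.5% and 15.6% at 28 days.

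Both E-type cyclins, which activate Cdk2, were low until 16 h and high from 32 h. Ccne1 had 0.276 and 0 CPM in the uninjured libraries and 0.625 to 14.8 CPM in those of 0.5 to 16 h. It had 59.6 and 29.0 at 32 h and 75.4 and 68.5 at 60 h. No library from 32 or 60 h overlapped any earlier one. As the uninjured libraries hold only 3 counts, the fold is given as a ratio of pooled rates with its 95% counting interval (Clopper-Pearson), which covers counting error only. It was 45.7 (15.5 to 223) at 0.5 h, 87.4 (29.7 to 425) at 1 h and 25.3 (8.49 to 124) at 8 h. By 32 h it was 494 (169 to 2390), and by 60 h 776 (265 to 3770). The rises were called at 0.5 h (adjusted p = 0.0415), 1 h (0.0206), 8 h (0.0392), 16 h (0.0418), 32 h (0.00301) and 60 h (0.00126). Those at 32 and 60 h held without any 1 library. Those at 0.5 and 8 h were lost without any 1 of their 4 libraries (0.0608 to 0.226), that at 1 h without either uninjured library or 1 h library 1 (0.0694 to 0.146), and that at 16 h without either uninjured library or 16 h library 1 (0.0697 to 0.34).

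Ccne2 held 3.95 and 4.19 CPM in the uninjured libraries and 2.61 to 11.6 CPM from 0.5 to 16 h. It then had 97.5 and 29.5 CPM at 32 h and 79.0 and 67.9 at 60 h, again with no overlap. The log2 fold change against uninjured cells was 3.98 ± 0.72 at 32 h (adjusted p = 0.00329) and 4.16 ± 0.73 at 60 h (0.00161). From 16 to 32 h it was 3.43 ± 0.70 (0.0438), a call lost without 16 h library 1 (0.256), 16 h library 2 (0.607) or 32 h library 1 (0.309). The level of Ccne1 per that of Ccne2, per kb, was 0.0916 and 0 in uninjured cells, 0.803 and 1.29 at 32 h, and 1.25 and 1.32 at 60 h. The D-type sum per E-type sum was 67.1 and 48.9 in uninjured cells, 14.9 and 34.7 at 16 h, 1.76 and 4.60 at 32 h, and 1.90 and 2.09 at 60 h.

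The kinases Cdk4 and Cdk6, which pair with D-type cyclins, were called higher at each time from 8 to 60 h. Cdk4 had 93.6 and 74.0 CPM in the uninjured libraries and 128 to 213 CPM from 0.5 to 4 h. It had 261 and 244 at 8 h, 449 and 395 at 16 h, 463 and 368 at 32 h, and 555 and 564 at 60 h. All libraries after injury up to 60 h lay above both uninjured ones. It was not called before 8 h, where the log2 fold change was 1.56 ± 0.32 (adjusted p = 0.00603). At 16, 32 and 60 h it was 2.34 ± 0.33 (0.0011), 2.31 ± 0.33 (0.00105) and 2.73 ± 0.33 (0.00025). The 8 h call was lost without uninjured library 2 (0.0507), and the later 3 held without any 1 library.

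Cdk6 started far lower and kept climbing. It had 19.5 and 12.3 CPM in the uninjured libraries, 15.8 to 34.7 from 0.5 to 4 h, 53.0 and 43.4 at 8 h, 92.0 and 145 at 16 h, 167 and 160 at 32 h, and 441 and 426 at 60 h. From 4 h on, each group lay wholly above the one before it. The log2 fold change against uninjured cells was 1.57 ± 0.36 at 8 h (adjusted p = 0.00915), 2.91 ± 0.38 at 16 h (0.00081), 3.37 ± 0.38 at 32 h (0.000486) and 4.76 ± 0.41 at 60 h (4.42e-05). The 8 h call was lost without uninjured library 2 (0.0711) or 8 h library 1 (0.0527), and the other 3 held without any 1 library. From 32 to 60 h Cdk6 rose by 1.39 ± 0.35 (0.0488), while Cdk4 differed by 0.42 ± 0.31 (0.521). The Cdk6 call was lost without any 1 of the 4 libraries (0.19 to 0.252) and with no filter on low counts (0.0916).

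The level of Cdk6 per that of Cdk4, per kb, was 0.0483 and 0.0385 in uninjured cells, 0.0473 and 0.0414 at 8 h, 0.0839 and 0.101 at 32 h, and 0.185 and 0.175 at 60 h. Cdk4 was thus the higher of the pair in every library on this scale. Cdk2, the partner of E-type cyclins, varied least of the kinases. It had 50.4 and 51.8 CPM in uninjured cells, 34.8 to 96.1 from 0.5 to 16 h, 143 and 114 at 32 h, and 134 and 140 at 60 h. Its rise at 60 h was called (log2 fold change 1.41 ± 0.49, adjusted p = 0.0478) and lost without any 1 library (0.135 to 0.186), with RLE size factors (0.0739) and without unnamed and mitochondrial gene models (0.0985). At 32 h it was 1.33 ± 0.49 (0.0714).

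**Figure D3:**
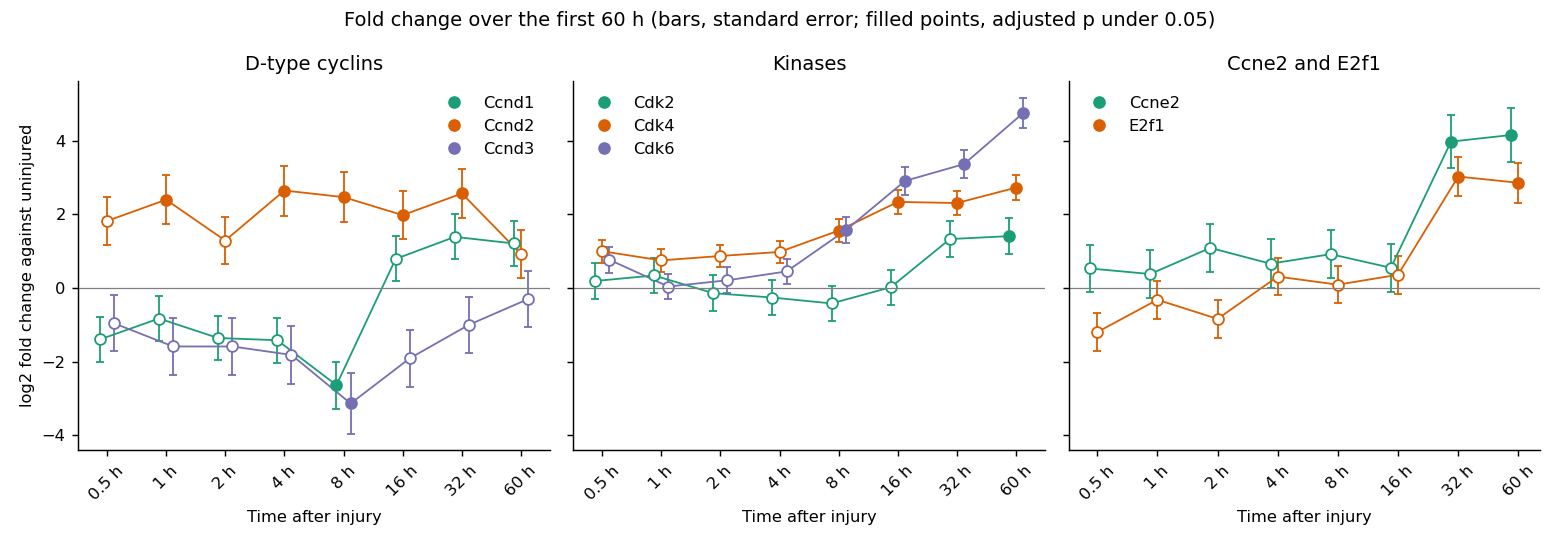
Log2 fold change against uninjured cells, with its standard error, for 8 of the 10 genes at each time to 60 h. Filled points passed the adjusted p of 0.05, and Ccne1 and E2f7 are left out because their uninjured libraries hold 3 and 0 counts. Ccnd1 and Ccnd3 reach -2.64 and -3.14 at 8 h, and Ccne2 and E2f1 are called at 32 and 60 h only.

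Both E2f genes rose at 32 and 60 h and were not called before. E2f1, which activates S phase genes, had 3.03 and 1.07 CPM in uninjured cells and 0.670 to 2.96 CPM from 0.5 to 16 h, and then 15.4 and 17.7 at 32 h and 15.4 and 14.2 at 60 h. No library of 32 or 60 h overlapped an earlier one. Its log2 fold change was 3.03 ± 0.54 at 32 h (adjusted p = 0.00297) and 2.86 ± 0.54 at 60 h (0.00239), and both calls held without any 1 library. From 16 to 32 h it rose by 2.67 ± 0.52 (0.0373), a call lost without any 1 of the 4 libraries (0.108 to 0.497).

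E2f7, a repressor of E2f targets, was at 0 in both uninjured libraries and between 0 and 1.44 CPM from 0.5 to 16 h. At 32 h it had 15.6 and 7.35 CPM, and at 60 h 72.4 and 72.9. Against the limit that 0 counts allow in uninjured cells, it was at least 124-fold higher at 32 h (adjusted p = 0.00985) and at least 784-fold higher at 60 h (0.00219). The 32 h call was lost without uninjured library 1 (0.0634) or 2 (0.0769), and the 60 h call held without any 1 library. From 32 to 60 h its log2 difference was 2.64 ± 1.24 (0.286), with both 60 h libraries above both at 32 h, while E2f1 differed by -0.17 ± 0.49 (0.916).

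Other genes of the pathway were read from 5 lists. Of 20 S phase genes known as E2f targets, such as the Mcm helicase subunits and the ribonucleotide reductase genes Rrm1 and Rrm2, 6 rose and 1 fell at 8 h, near the share of all genes called there (30.1%), and 9 rose and 2 fell at 16 h (22.7% of all genes were called). At 32 h (20.5%) 19 rose and none fell, and at 60 h (28.3%) again 19 rose, with a median log2 fold change of 4.41 and 4.75. Between 16 and 32 h (0.796%) 12 of the 20 rose, led by Rrm2 (5.18 ± 0.45, adjusted p = 0.000211) and Ccna2, the A-type cyclin (6.38 ± 0.53, 0.000211). Of 5 genes for later cyclins and their kinase, a list that also holds Ccna2, 4 rose between 16 and 32 h. Among them were Ccnb1 (5.72 ± 1.19, 0.0473) and Cdk1 (7.51 ± 1.51, 0.0415).

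Among 10 CDK inhibitors and pocket proteins, 1 rose at 1 h and at 16 h, which is no more than the share of all genes called (10.2% and 22.7%), and 4 rose and 1 fell at 60 h (28.3%). Cdkn1a, the inhibitor p21, rose at 1 h (log2 fold change 6.16 ± 1.16, adjusted p = 0.00761), 8 h (6.98 ± 1.20, 0.00326) and 60 h (5.45 ± 1.12, 0.004), with a mean of 9.16 CPM in uninjured cells, 1175 after 8 h and 402 after 60 h. Cdkn1b, the inhibitor p27, fell at 60 h (-1.44 ± 0.39, 0.0166), and Rbl1, a pocket protein, rose (3.60 ± 0.88, 0.00974). Of 8 other E2f and DP factors, 4 rose at 60 h (28.3% of all genes were called), including Tfdp1, the partner of E2f1 (3.65 ± 0.55, 0.000685), and E2f8, the closest relative of E2f7 (6.79 ± 0.89, 0.000722). E2f8 had been called lower at 8 h (-7.87 ± 1.45, 0.00625), where its libraries held 0 CPM, so that this fitted value is no bound. Of 12 genes that activate these kinases or turn the cyclins over, 4 rose and 1 fell at 60 h (again beside 28.3% of all genes), led by Cks1b, which binds the kinases (4.61 ± 0.47, 9.79e-05), and Ccnh, a subunit of the CDK-activating kinase (2.27 ± 0.45, 0.00312).

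At 7, 14 and 28 days after injury, fewer members were called above uninjured cells at each later time. These libraries are in another table than the earlier ones, so table and time cannot be told apart in comparisons with uninjured or 60 h cells. Against uninjured cells, 6 members were higher at 7 days (11.2% of 28823 genes were called), 5 at 14 days (12.8%), and 1 was higher and 1 lower at 28 days (6.49%). The median log2 fold change of the 10 was 2.67, 1.48 and -0.50 (-0.44 with Ccne1 at its bound and E2f7, at 0 in both groups, left out), with 0.00 over all genes each time. Against 60 h cells, 3 members were lower and 1 higher at 7 days (16.8%). The 7 day count was 2 without either uninjured library, that at 14 days 2 and 1 without uninjured library 1 and 2 and 2 without 14 day library 2. That at 28 days was 1 without uninjured library 1 or 2 or 28 day library 1 and 3 without 28 day library 2, and the 7 day against 60 h count was 1 without any 1 of the 4 libraries. Within the regeneration table no member was called between 14 and 7 days (edgeR, 0.0531% of 16954 genes were called), where 2 had an unadjusted p under 0.05 and DESeq2 called 1. Between 28 and 7 days Cdk6 was called lower (0.295%), and 0 members were without any 1 library. DESeq2 and a fit with no filter on low counts called 6 members there.

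Cdk6 was the 1 member called above uninjured cells at 28 days as well as at 7 and 14 days. It had 295 and 360 CPM at 7 days, 174 and 157 at 14 days, and 40.2 and 65.3 at 28 days, all above both uninjured libraries. The log2 fold change against uninjured cells was 4.37 ± 0.38 at 7 days (adjusted p = 3.14e-07), 3.38 ± 0.36 at 14 days (2e-05) and 1.73 ± 0.34 at 28 days (0.00411). The first 2 calls held without any 1 library, and that at 28 days was lost without uninjured library 2 (0.126) or 28 day library 2 (0.0745). Against 60 h it differed by -0.40 ± 0.33 at 7 days (0.449), whereas Cdk4 fell by 1.52 ± 0.30 on the log2 scale (0.00154), a call kept without any 1 library. Cdk4 had 172 and 218 CPM at 7 days, 164 and 243 at 14 days, and 95.9 and 92.3 at 28 days. Cdk6 per Cdk4, per kb, therefore reached its highest values of all libraries at 7 days, 0.399 and 0.385, with 0.247 and 0.149 at 14 days and 0.0973 and 0.164 at 28 days. From 7 to 28 days Cdk6 fell by 2.50 ± 0.34 (0.0475), a call lost without any 1 library (0.146 to 0.403).

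**Figure D4:**
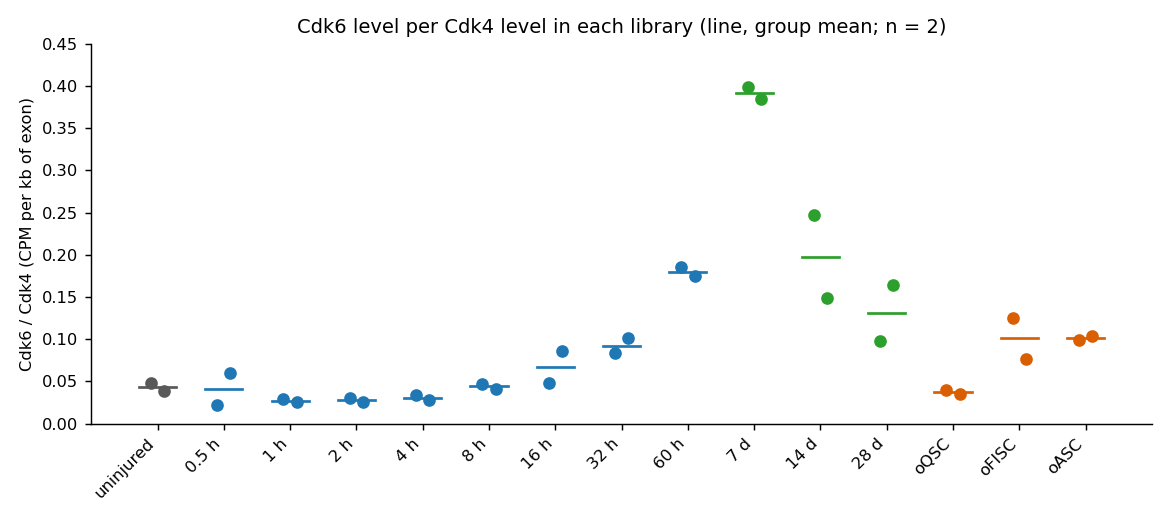
Cdk6 level divided by Cdk4 level, both in CPM per kb of exon, in each library (points) with the group mean (line). The ratio lies between 0.0224 and 0.101 up to 32 h, at 0.175 and 0.185 at 60 h, and at 0.385 and 0.399 at 7 days.

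Among the D-type cyclins, Ccnd1 had 66.2 and 88.7 CPM at 7 days and 114 and 165 at 14 days, and its lowest group mean of all at 28 days, with 16.4 and 14.5 CPM. It fell from 60 h to 7 days by 1.81 ± 0.57 on the log2 scale (adjusted p = 0.0321), a call lost without any 1 library (0.0864 to 0.195). At 28 days it was lower than in uninjured cells (-2.91 ± 0.59, 0.0053), which was lost without uninjured library 1 (0.0514) or 28 day library 1 (0.056). Ccnd3 had 174 and 182 CPM at 7 days, 149 and 485 at 14 days, and 153 and 186 at 28 days, and was not called. Ccnd2 was higher at 7 days, at 18.2 and 19.9 CPM, than in uninjured cells (3.26 ± 0.69, 0.00362) and at 60 h (2.33 ± 0.65, 0.017). The first of these was lost without either uninjured library (0.0676 and 0.0721), the other without any 1 library (0.0788 to 0.171). Ccnd1 made up 15.6% and 12.5% of the D-type level at 28 days, below every other library but oQSC library 2 (15.1%).

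The E-type cyclins were still raised at 7 days. Ccne1 had 32.8 and 42.4 CPM at 7 days, 4.07 and 25.0 at 14 days, and 0 in both libraries at 28 days, which allows up to 0.101 CPM. At 28 days it was at least 371-fold lower than at 7 days, which was not called (adjusted p = 0.0572). Its ratio to uninjured cells was 405 (138 to 1970) at 7 days (adjusted p = 0.000554) and 158 (53.6 to 769) at 14 days (0.00199). The first call held without any 1 library and the other was lost without uninjured library 2 (0.059). Ccne2 had 29.1 and 29.3 CPM at 7 days, 11.0 and 18.3 at 14 days, and 3.74 and 4.25 at 28 days, the last overlapping the uninjured values. It was called at 7 days (log2 fold change 2.84 ± 0.58, 0.00283) and 14 days (1.85 ± 0.56, 0.0343). The 7 day call was lost without either uninjured library (0.0664 and 0.0688) and the 14 day call without any 1 library (0.067 to 0.31) and with RLE size factors (0.0554).

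Cdk4 was called higher at 7 days (1.21 ± 0.30, adjusted p = 0.0118) and 14 days (1.28 ± 0.30, 0.00783). The first was lost without any 1 library (0.0573 to 0.23) and with no filter on low counts (0.0723), the other without uninjured library 1 (0.0651), uninjured library 2 (0.22) or 14 day library 2 (0.19). E2f1 had 10.8 and 11.9 CPM at 7 days and 4.87 and 3.54 at 14 days, and was not called. E2f7 had 2.93 and 6.74 CPM at 7 days, 0.879 and 3.85 at 14 days, and 0 in both libraries at 28 days. It was at least 52.2-fold above uninjured cells at 7 days (0.00594) and at least 25.6-fold at 14 days (0.0138). These calls were lost without uninjured library 1 (0.0598 and 0.0944) or 2 (0.106 and 0.168), and at 14 days without 14 day library 2 (0.116). From 60 h to 7 days E2f7 fell by 3.91 ± 1.15 on the log2 scale (0.0246), which was lost without any 1 library (0.0772 to 0.213). Of the 20 S phase genes 13 fell and none rose between 60 h and 7 days (16.8% of all genes were called), and 16 (11.2%) were still above uninjured cells at 7 days. Cdkn1b (2.74 ± 0.43, 0.000188) and Cdkn1c, the inhibitor p57 (3.12 ± 0.74, 0.00571), rose from 60 h to 7 days.

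In old cells injury went with higher levels of most members. Against oQSC, 8 members rose in oASC and none fell (40.3% of 30099 genes were called), and the count was 8 or 9 without any 1 library. The median log2 fold change of the 10 was 3.79, against -0.33 over all genes. Ccnd1 had 16.5 and 18.5 CPM in oQSC and 319 and 293 in oASC (4.12 ± 0.41, adjusted p = 0.000105). Ccne1 had 5.36 and 7.81 against 119 and 112 (4.13 ± 0.25, 1.15e-05), and Ccne2 6.77 and 3.82 against 137 and 130 (4.65 ± 0.32, 1.8e-05). The 2 groups did not overlap for any of the 10, but for how many of all genes this holds was not counted. Cdk6 had 23.7 and 22.9 against 278 and 288 (3.59 ± 0.23, 1.36e-05), and Cdk4 139 and 152 against 650 and 642 (2.14 ± 0.21, 8.88e-05). Cdk2 rose by 1.00 ± 0.20 (0.00424). E2f1 had 0.592 and 1.31 against 17.4 and 13.2 (3.99 ± 0.43, 0.000168), and E2f7 1.64 and 1.46 against 43.4 and 37.6 (4.70 ± 0.31, 1.65e-05). All 8 calls held without any 1 library. Ccnd2 (-0.78 ± 0.30, 0.0694) and Ccnd3 (1.05 ± 0.44, 0.0884) were not called. All 20 S phase genes rose in this comparison (40.3% of all genes were called).

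In oFISC, 5 members were lower than in oQSC and none was higher, near the share of all genes called (41.9%). They were Cdk2 (15.2 and 17.4 CPM against 73.5 and 63.6, log2 fold change -2.46 ± 0.21, adjusted p = 0.000113), Ccne1 (-2.58 ± 0.27, 0.00021), Cdk4 (-1.50 ± 0.20, 0.000703), Ccnd2 (-1.24 ± 0.31, 0.014) and Ccnd3 (-1.44 ± 0.45, 0.0315). The median log2 fold change of the 10 was -0.89, against 0.52 over all genes. Cdk2, Ccne1 and Cdk4 held without any 1 library. Ccnd2 was lost without oQSC library 1 (0.0675) or oFISC library 2 (0.107), and Ccnd3 without oQSC library 2 (0.209) or oFISC library 2 (0.226), with RLE size factors (0.07) and without unnamed and mitochondrial gene models (0.054). The count was 3 to 6 without 1 library, lowest without oFISC library 2. Of the 20 S phase genes 9 fell and none rose, near the 41.9% of all genes called. Satellite cell markers summed to 9760 and 9290 CPM in oFISC against 26200 and 23100 in oQSC. Myofibre markers summed to 723 and 93.1 CPM in oFISC against 126 and 132. The part of these markers in the result was not tested. Whether oFISC was fixed as oQSC was is not clear, so injury and isolation cannot be told apart here.

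Old and younger cells are in separate tables, so age and table cannot be told apart below. Before injury, 3 members were higher and 1 lower in oQSC than in uninjured younger cells (21.6% of 28823). Ccnd1 was lower (-2.73 ± 0.59, adjusted p = 0.00198) and Ccnd2 higher (28.2 and 21.6 CPM, 3.64 ± 0.70, 0.000702), and both held without any 1 library. Ccne1, at a ratio of 71.7 (24.4 to 349), was called (0.00307) but lost without uninjured library 2 (0.0709). E2f7, at least 16.8-fold higher, was called (0.0139) but lost without uninjured library 1 (0.0833) or 2 (0.143). The count was 3 without uninjured library 1 and 2 without uninjured library 2. The oQSC libraries also held less Pax7, 78.6 CPM on average against 1650, and more Myod1, 1303 against 46.1, and Cdkn1a stood at 1409 CPM against 9.16 (7.27 ± 1.02, 3.64e-05). The 9 satellite cell markers, Pax7 among them, summed higher in oQSC, at 26200 and 23100 CPM against 4430 and 4620. Summed markers of other cell types differed too. Macrophage and monocyte markers were 161 and 131 CPM in oQSC against 5.51 and 4.32 (7 and 6 of 11 genes at 0), Schwann cell markers 574 and 566 against 106 and 127, and pericyte and smooth muscle markers 328 and 366 against 1980 and 1740. The part of these markers in the result was not tested.

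After injury no member was called between oASC and 60 h cells (edgeR, 2.20% of 28823 genes were called). At an unadjusted p under 0.05 there was 1 member, and DESeq2 called 0. The largest log2 difference was that of Ccnd2, 1.95 ± 0.64 (adjusted p = 0.135), and Cdk2 (0.01 ± 0.43), E2f1 (0.05 ± 0.81), Ccnd1 (0.17 ± 0.55) and Cdk4 (0.21 ± 0.30) were nearest to 0. A missed threshold does not show that the levels were alike. Cdk6 had 278 and 288 CPM in oASC against 441 and 426 at 60 h, with groups that do not overlap (-0.62 ± 0.33, 0.396), and Cdk6 per Cdk4, per kb, was 0.0992 and 0.104 against 0.185 and 0.175.

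The injury response itself was compared as the log2 change from oQSC to oASC minus that from uninjured to 60 h. It differed for 2 members (7.28% of 28823), and DESeq2 called 4. The log2 change was larger in old cells for Ccnd1 (2.90 ± 0.80, adjusted p = 0.0298) and smaller for E2f7 (0.0397). For Ccnd1 this difference lay mostly before injury. It was -2.73 ± 0.59 between oQSC and uninjured cells, and 0.17 ± 0.55 (0.962) between oASC and 60 h cells. E2f7 differed by -0.84 ± 1.02 (0.724) between oASC and 60 h cells. For E2f7 the uninjured libraries are at 0, so that its fitted value is no bound. The Ccnd1 call held only without uninjured library 2 (0.0268), and was lost without any of the other 7 libraries (0.0772 to 0.157). The E2f7 call was lost without any 1 of the 8 libraries (0.0863 to 0.202), and the count was 0 in 7 of the 8 cases.

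**Figure D5:**
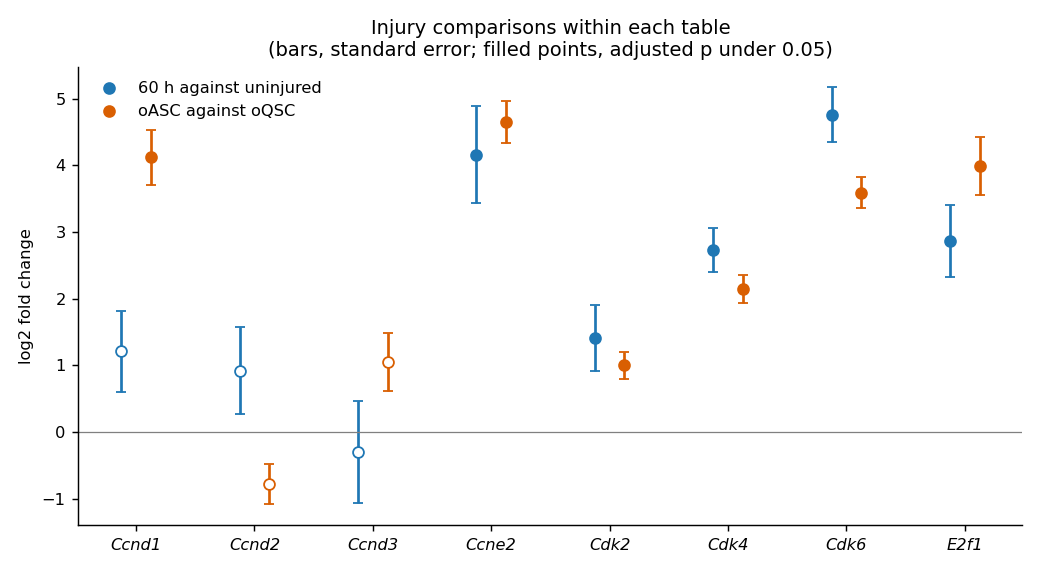
Log2 fold change with its standard error after injury, for younger cells (60 h against uninjured) and old cells (oASC against oQSC), each from the fit of its own table. Filled points passed the adjusted p of 0.05. Ccnd1 is at 1.21 in younger and 4.12 in old cells. Ccne1 and E2f7 are left out because of their counts of 3 and 0 in uninjured cells.

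Across the 30 libraries, groups were ordered by their own means, so the order describes these values and tests nothing. The same count over all genes was not made. Overlaps between neighbours were fewest for Cdk6. Its 15 group means fell into an order in which 9 of 14 neighbouring groups did not overlap, from 433 CPM at 60 h to 15.9 in uninjured cells. For Cdk4 this held for 6 of 14 neighbours and for Ccnd3 for 1 of 14, so that most of the order of Ccnd3 lies within the spread between libraries. The highest group was oASC for Ccnd1, Ccne1, Ccne2, Cdk2 and Cdk4, 60 h for Cdk6 and E2f7, 32 h for E2f1, oQSC for Ccnd2 and uninjured for Ccnd3. The top group overlapped the next one for Ccnd1 (oASC at 306 and 32 h at 304 CPM), Cdk2 (oASC and 60 h at 138 and 137) and E2f1 (32 h and oASC at 16.5 and 15.3). For Ccnd3, 14 day library 2 (485 CPM) lay above both uninjured libraries (440 and 364).

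The genes whose pattern was most like each member were found by Pearson's r of log2 CPM over the 30 libraries, among 9974 genes with a mean of at least 5 CPM. Libraries of a group share their condition, so r is only a description. Ccne2 was most like Chek1, a checkpoint kinase (r = 0.945), and Ccna2 (0.927). E2f7 was most like Cdca5 (0.933), Ccnb1 (0.931) and Birc5 (0.924), and E2f1 like Chaf1b (0.921), a chromatin assembly subunit, and Top2a (0.881). Ccne1 had r = 0.932 with Stmn1, and E2f7 was among its 3 closest genes (0.895). For Cdk4 the closest gene was Tsfm (0.959), for Cdk6 Nt5dc2 (0.943), for Cdk2 Mfsd1 (0.916), for Ccnd1 Atp5g2 (0.889) and for Ccnd3 Mvb12a (0.917). Ccnd2 had the loosest match, Hsp90b1 at 0.768. Among the members, r was 0.805 between the 2 E-type cyclins and 0.888 between Ccne2 and E2f7. Ccnd2 had -0.268 with Ccnd1 and -0.401 with Ccnd3, and Ccnd1 had 0.659 with Ccnd3.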

How the data were processed

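Polyadenylated RNA of 30 libraries was turned into cDNA with the SMART-Seq v4 kit and sequenced in pairs. The authors deposited raw counts per gene in 3 tables (time course to 60 h, regeneration, old cells). The submitters' processing notes name Trimmomatic 0.36, HISAT2 2.1.0, SAMtools 1.3, StringTie 1.3.3 and mm10. Which program counted the reads, with what strand setting and which gene models, is not given in the sources used here. No molecular identifiers are mentioned, so intervals and floors cover counting error only.

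The deposited counts were fitted with edgeR 4.0.16 (R 4.3.3, limma 3.58.1). Low genes were removed by filterByExpr, with a minimum count of 10 and a minimum total of 15. Scaling was by TMM, and groups were compared by the quasi-likelihood F test without a replicate block. P-values were adjusted by Benjamini-Hochberg over all genes of a comparison and called under 0.05, and the SE is the absolute log2 fold change over the square root of F. Each table had its own fit. Comparisons between tables used 1 fit over all 30 libraries on 55154 matched identifiers, which also gave the CPM. Fold changes from a table's own fit can therefore differ slightly from ratios of CPM. Groups at 0 were set at 3 counts over their 2 libraries. An exact permutation test of 2 against 2 cannot go below p = 0.333 and was not used. The fits of the 3 single tables were tested on simulated data, in 1 comparison each. The fit over all 30 libraries was not.

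The members and lists were chosen with earlier results of these data known. All 10 members are described, and of each list the genes named are among the 4 with the smallest adjusted p. DESeq2 1.42.0, RLE size factors, no filter on low counts, the replicate block, other sets of genes or libraries, and leaving out each library were the alternatives.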

Additional observations from a re-analysis of the deposited data

Results flagged for a closer look

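The response to injury differed between old and younger cells by a test of the difference itself for 2 of the 10 genes (7.28% of 28823 genes were called). Age and table cannot be told apart in this test. The Ccnd1 call was lost without any 1 of 7 of the 8 libraries, and the E2f7 call without any 1 of the 8. For Ccnd1 the log2 change was larger in old cells by 2.90 ± 0.80 (edgeR quasi-likelihood F test, adjusted p = 0.0298). Its levels were 16.5 and 18.5 CPM in oQSC, 319 and 293 in oASC, 153 and 79.4 in uninjured and 272 and 271 in 60 h cells. The log2 difference was thus mostly between oQSC and uninjured cells (-2.73 ± 0.59), with 0.17 ± 0.55 between oASC and 60 h cells. For E2f7 the fitted difference was -9.15 ± 2.62 (adjusted p = 0.0397), with 1.64 and 1.46 CPM in oQSC, 43.4 and 37.6 in oASC, 0 in both uninjured libraries and 72.4 and 72.9 at 60 h. As the uninjured libraries are at 0, this value depends on the prior count and is no bound. The adjusted p over all alternatives ran from 0.000882 to 0.157 for Ccnd1 and from 1.24e-05 to 0.202 for E2f7.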

How the results depend on the processing

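Of the 68 calls of single members in single comparisons, 30 were kept under every alternative run, and these are the 30 kept whichever library was left out. None changed direction. DESeq2 kept all 68 calls. Precision is limited by 2 libraries per group, and for Ccne1 and E2f7 by 0 to 3 counts in uninjured cells.

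Counts of called members that moved by over 1.5 times were as follows. With DESeq2 they were 4 at 0.5 h, 3 at 2 h, 4 at 4 h, 2 from 8 to 16 h, 4 from 16 to 32 h, 1 for 14 against 7 days, 6 for 28 against 7 days and 4 for the old minus younger response. With no filter on low counts they were 2 at 0.5 h, 2 at 2 h, 4 at 4 h, 1 from 8 to 16 h, 4 from 16 to 32 h, 0 from 32 to 60 h and 6 for 28 against 7 days. With RLE size factors the 16 h count was 2. Without unnamed and mitochondrial gene models 28 against 7 days gave 3. With only the 2 groups compared, 0.5, 1 and 4 h gave 0 each. Without the 0.5 to 4 h libraries the counts were 2 from 8 to 16 h, 5 from 16 to 32 h, 2 from 32 to 60 h and 4 for 28 days against uninjured cells. The share of all genes called under each alternative is not given, here or above. These counts therefore do not show whether members moved more than other genes. The cause was not tested.

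The libraries share replicate numbers, but no label says that a number marks a shared animal or day, and the correlation of same-numbered deviations ran from -0.0373 to 0.215 over 21 comparisons. With the replicate block the counts were 1 at 1 h, 2 at 4 h, 1 from 16 to 32 h, 0 from 32 to 60 h and 0 for 28 against 7 days, and the other counts stayed within 1.5 times. The calls lost were Ccnd2 at 1 h (adjusted p = 0.0559) and 16 h (0.0668), Ccne2 from 16 to 32 h (0.0767), and Cdk6 from 32 to 60 h (0.0741) and for 28 against 7 days (0.0509).

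Leaving out 1 library gave 0 at 0.5 h, 0 to 1 at 1 h, 0 to 3 at 4 h, 1 to 3 at 8 h and 2 to 4 at 16 h. It gave 0 to 1 from 16 to 32 h, 0 from 32 to 60 h and 0 for 28 against 7 days. Against uninjured cells it gave 2 to 5 at 7 days, 1 to 4 at 14 days, 1 to 3 at 28 days and 2 to 4 for oQSC. It gave 1 for 7 days against 60 h, 3 to 6 for oFISC against oQSC and 0 to 1 for the old minus younger response.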
